A study of Mus musculus with 10 samples.

Results

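The cytosolic ribosomal protein (RP) genes were described in single cells of the stromal vascular fraction (SVF) of mouse inguinal white adipose tissue (iWAT). A row of the count table was a member when its symbol was Rpl or Rps followed by a number, with at most a closing letter and number, or was Rpsa, Rplp0, Rplp1, Rplp2 or Fau. Rows with -ps in the symbol and the Rps6k kinases were left out. The rule found 83 members among 14623 genes, 48 of the large and 35 of the small subunit, and 82 of them had at least 1 unique molecular identifier (UMI), the tag that marks 1 captured molecule.

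The cells came from 1 Bbs8 KO mouse (Bbs8-/-) and 1 Bbs8 WT mouse (Bbs8+/+), both lean and 7 weeks of age. Bbs8 encodes a subunit of the BBSome, the complex that carries proteins into and out of primary cilia, and is listed as Ttc8. The SVF is what remains of fat after collagenase digestion and loss of the floating adipocytes. Cells were profiled with Seq-Well S3, which captures the 3′ end of polyadenylated RNA on barcoded beads in the wells of an array. The labels list 5 samples per genotype, which correspond in number to 5 barcode sets of each mouse in the table, so all ranges over sets are technical and no test between genotypes was possible. The set codes begin with KO5, KO6, WT3 or WT4, and the labels do not explain these numbers. If the numbers were animals, ranges over sets would also hold differences between mice. Intervals are exact 95% intervals and cover counting error only.

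Each cytosolic ribosome is built from a small subunit, which decodes the mRNA, and a large subunit, which joins the amino acids. Most of their proteins are needed in equal numbers. RP mRNAs mostly begin with a C followed by a run of pyrimidines, the 5′ terminal oligopyrimidine (TOP) tract. Through this tract mTOR signalling sets how well these mRNAs are translated, with LARP1 as the repressor that binds it. RP mRNAs are among the most abundant of a cell, and resting lymphocytes, which carry little cytoplasm, are known for a high share of them in single-cell data.

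The table held 8985 Bbs8 KO cells with a median of 251 UMIs and 1929 Bbs8 WT cells with a median of 278 UMIs. A barcode set held 1635 to 2005 cells of the Bbs8 KO mouse or 196 to 768 of the Bbs8 WT mouse. Gm42418, a row that overlaps ribosomal RNA repeats, took 14% (Bbs8 KO) and 15.1% (Bbs8 WT) of UMIs, and mitochondrial genes took 8.24% and 8.55%. Both were left out of every total, which left 2445556 (Bbs8 KO) and 546901 (Bbs8 WT) UMIs. For Ttc8, 5 UMIs were found in Bbs8 WT, all in 1 set, and 0 in Bbs8 KO, where this leaves room for at most 1.23 CPM (UMIs scaled to the same total for every group). A barcode was found in more than 1 set for 32 of 10843 barcodes, and 37 cells had a barcode made of primer sequence.

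The first bases of some RP transcripts show the tract by which the group is known. The stretches below run from 10 bases before to 20 bases after the RefSeq start site (GRCm38.p6), and capitals mark a C with at least 4 pyrimidines (C or T) behind it, on the sense strand, that begins within 5 bases of the start. The first 5 are abundant members, and the last 3 are those with the largest differences between the mice (given further below).
Rps9, chr7:3704031-3704060, plus strand: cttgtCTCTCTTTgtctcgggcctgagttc
Rps24, chr14:24490668-24490697, plus strand: gctggggtCCTTCCTTgcgcgttgatatga
Rplp0, chr5:115559457-115559486, plus strand: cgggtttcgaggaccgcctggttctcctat
Rpl4, chr9:64173377-64173406, plus strand: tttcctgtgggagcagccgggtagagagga
Rps3, chr7:99483690-99483719, minus strand: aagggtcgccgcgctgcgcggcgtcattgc
Rps2, chr17:24720053-24720082, plus strand: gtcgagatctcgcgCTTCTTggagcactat
Rps15a, chr7:118116128-118116157, minus strand: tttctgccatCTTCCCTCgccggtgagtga
Rpl34, chr3:130730379-130730408, minus strand: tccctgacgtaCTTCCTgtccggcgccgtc
Of the 83 members, 62 matched a RefSeq start. Such a tract began within 5 bases of it in 30 of the 62 (48.4%), against 18.5% of 27025 starts of all genes. At the start itself it stood in 14 (22.6%), against 2.49% of all genes. In Rplp0, Rpl4 and Rps3 no tract of this form began within 5 bases of the start.

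The levels of the members were very uneven. Since each molecule gives 1 tag at its 3′ end, CPM values were not divided by transcript length. Members held 116751 UMIs, and the 6 most abundant held 49.2% of these, the 10 most abundant 62.8% and the 20 most abundant 80.7%. Rpl4, which lines the tunnel of the nascent peptide, had 3472 CPM in Bbs8 KO against 3182 CPM in Bbs8 WT. Rps3, at the entry of the mRNA channel, had 3437 CPM in Bbs8 KO against 2467 CPM in Bbs8 WT.
Rps14 (2999 CPM in Bbs8 KO against 1898 CPM in Bbs8 WT), Rpl8 (2970.3 and 1986 CPM) and Rplp0 (3010.4 and 1366 CPM), the base of the stalk that recruits elongation factors, were also abundant. Rplp1 (1382 and 1615 CPM), Rps9 (1471 and 1040.4 CPM), Rpl32 (1293 and 1437 CPM) and Rps24 (1256 and 876 CPM) were also among the 10 most abundant. At the other end, Rps3a2 had 2 UMIs over all cells, Rps3a1 had 3, Rpl36a had 4, Rpl32l had 6, and Rps27a and Rpl28 had 7 each. Rps6, the classical substrate of the S6 kinases, had 13 UMIs. Rpl29 was listed at 0 in all cells, which allows up to 1.23 CPM in Bbs8 KO against 5.49 CPM in Bbs8 WT.

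**Figure D1:**
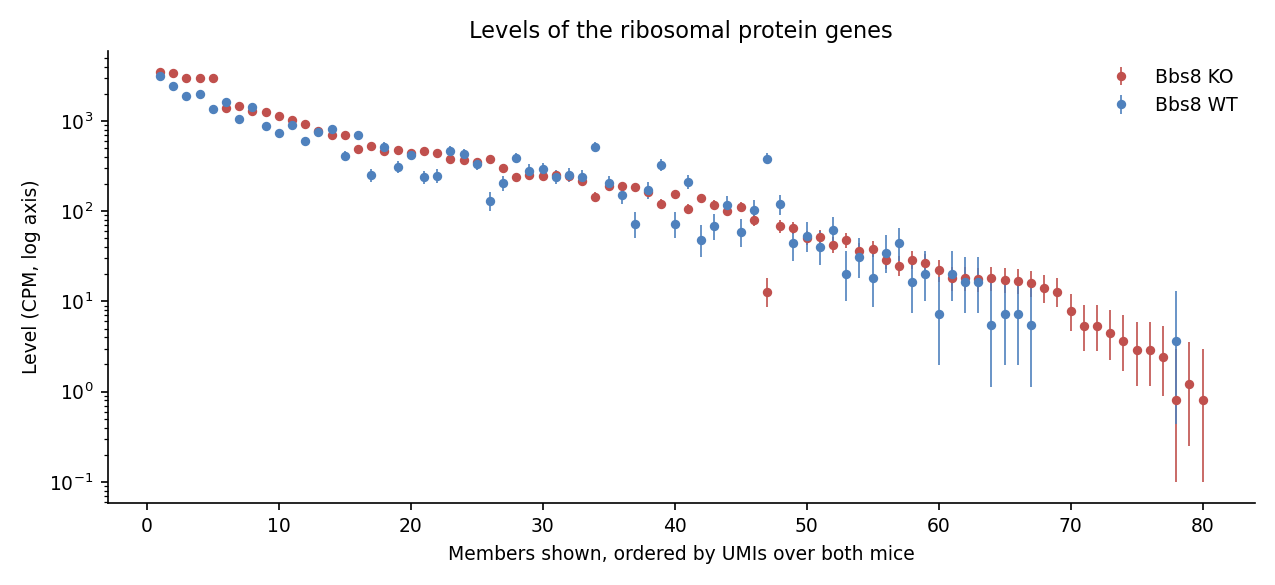
Level of RP genes (CPM, log axis) in the Bbs8 KO and Bbs8 WT mouse, ordered by UMIs over both mice. Bars are exact Poisson 95% intervals (counting error only), and members with 0 UMIs in a mouse have no point there. Of the 83 members, 81 were given a place on the axis, and the levels fall from 3472 CPM for Rpl4 in Bbs8 KO to around 1 CPM.

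Part of this range moved with sequence shared between genes. For each member, windows of 61 bases (the read length of the study) over the last 500 bases of 1 representative transcript were searched for in the transcripts of all other genes of GENCODE vM21. The 44 members with less than 50% of windows shared had a median of 261 CPM over both mice. The 39 members with at least 50% shared had a median of 34.8 CPM. Across the 83 members, Spearman's rho between level and shared percentage was -0.43, given as a description, since all values come from the same libraries. Among the 10 most abundant members the median share was 14.2%, and among the 20 lowest it was 80%.
Rpl4, Rps3, Rps24 and Rps15a shared no window. By contrast, 100.0% of windows of Rpl10 (19 UMIs), 98.6% of Rps27 (11 UMIs) and 90.5% of Rps6 (13 UMIs) were found elsewhere, with Rpl10-ps3, Rps27rt and Rps6-ps4 as the gene that shared most. Shared sequence did not go with a low level throughout. Rpl15 (90 UMIs) and Rpl21 (53 UMIs) were low with 0% shared, and Rps2 (998 UMIs) had 85% shared. The part of shared sequence in these levels was not tested.

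**Figure D2:**
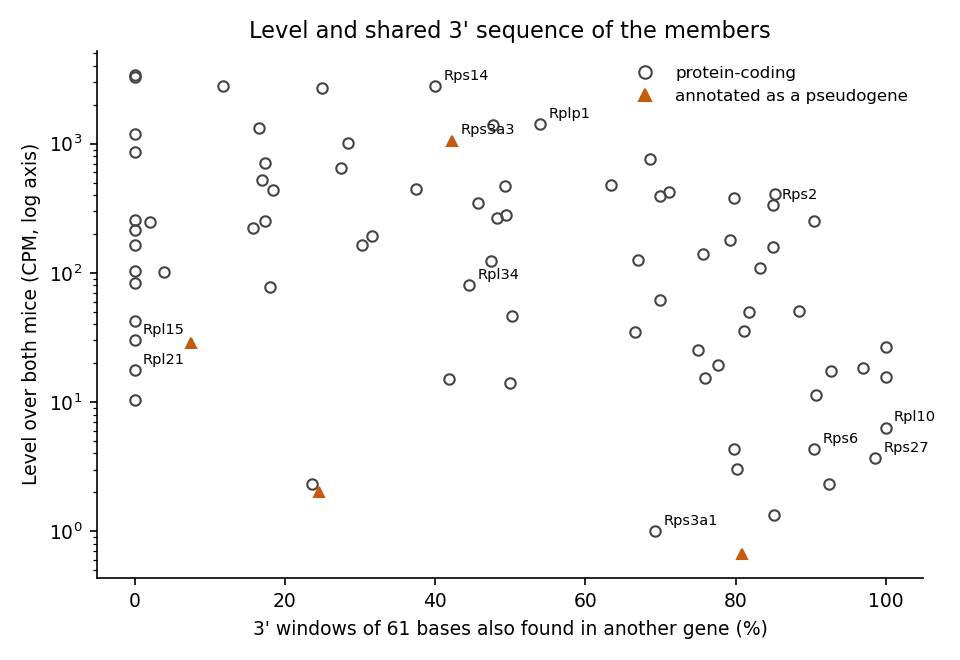
Level over both mice (CPM, log axis) against the percentage of 3′ windows also found in another gene, 1 point per detected member shown. Members with more shared windows tend to lie lower, and triangles mark the 4 members annotated as pseudogenes.

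The rule took in 4 members that GENCODE annotates as pseudogenes (Rps3a2, Rps3a3, Rpl32l and Rps4l). Of these, Rps3a3 (chromosome 13, 108670603 to 108671397, mm10) had 3158 UMIs, whereas the protein-coding Rps3a1 (chromosome 3) had 3 UMIs. Of the windows of Rps3a1, 69.3% were shared with other genes. Tags of Rps3a3 and of other members with a high shared percentage cannot be assigned to 1 gene with certainty.

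Several RP genes have a second copy that is used in particular tissues. Rpl22, known for its need in T cell development, had 484 CPM in Bbs8 KO against 704 CPM in Bbs8 WT, and its paralog Rpl22l1 had 65.4 CPM (55.7 to 76.4) and 43.9 CPM (28.1 to 65.3). Rpl39 had 217 and 241 CPM, while Rpl39l had 12.7 CPM in Bbs8 KO and 0 UMIs in Bbs8 WT. Rpl7 had 462 CPM in Bbs8 KO against 238 CPM in Bbs8 WT, and its paralog Rpl7l1 had 99.4 and 117 CPM. Rps27l, a p53 target, had 67.9 and 119 CPM, above its parent Rps27 (4.5 CPM and 0 UMIs), which shares 98.6% of its windows. Rps4x, encoded on the X chromosome, had 527 and 251 CPM, against 24.9 and 43.9 CPM for Rps4l. Rpl3 had 117 and 67.7 CPM, and Rpl10 had 7.77 CPM and 0 UMIs. Outside the rule, Rpl36al had 38 CPM in Bbs8 KO against 71.3 CPM in Bbs8 WT against 0.818 and 3.66 CPM for Rpl36a, and Rps27rt had 115 and 141 CPM.

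By pooled share, T cell-like and then B cell-like cells were highest in both mice. Cells were clustered without the RP genes, and clusters were named by marker lists, so that the genes counted here did not shape the classes. In Bbs8 KO, members took 6.69% of UMIs in T cell-like cells (6.6% to 6.79%, sets 6.47% to 6.8%) and 5.84% in B cell-like cells (sets 5.57% to 6.13%). In Bbs8 WT they took 7.73% in T cell-like cells (7.37% to 8.11%, sets 2.42% to 8.14%) and 6.5% in B cell-like cells (sets 5.24% to 7.27%). The Bbs8 WT sets of 2.42% and 3.63% held 1 and 5 T cell-like cells, and the other 3 sets lay at or above 7.94%.
Next by pooled share among the named classes stood epithelial-like cells, which carried milk protein genes (5.3% in Bbs8 KO and 5.78% in Bbs8 WT). Dendritic-like cells (4.11% and 4.92%, the latter from 22 cells) and mitotic-like cells (3.99% and 3.92%) followed. The 1866 Bbs8 KO and 213 Bbs8 WT cells left unnamed had 4.81% and 4.52%. Pericyte-like cells had 3.46% (Bbs8 KO) and 2.89% (Bbs8 WT), and monocyte-like cells had 3.27% and 3.48%. The lowest pooled shares were found in stromal-like (3.09% and 2.42%), macrophage-like (2.54% and 2.39%) and endothelial-like cells (2.01% and 2.17%). The sets of B cell-like and epithelial-like cells overlapped in both mice (the latter spanned 4.61% to 5.87% with Bbs8 KO, 4.64% to 6.07% with Bbs8 WT), and dendritic-like sets of Bbs8 WT reached 8.9%, so these classes cannot be ordered. Within Bbs8 WT, the last 3 classes had overlapping ranges over barcode sets and cannot be ordered. Pericyte-like sets of Bbs8 WT (1.5% to 3.66%) overlapped all 3. In Bbs8 KO, stromal-like sets (2.65% to 3.38%) overlapped macrophage-like (2.39% to 2.8%), monocyte-like (2.87% to 3.47%) and pericyte-like sets (2.93% to 3.81%). Stromal-like cells of Bbs8 KO thus cannot be ordered against these classes.
The classes were not equally firm. With clustering seeds 2 and 3, at least 96.1% of the cells of each named class but the pericyte-like kept their class, and of the pericyte-like cells 96.2% and 18.6% did. The classes also moved with the number of threads used in the linear algebra, so the values of pericyte-like, endothelial-like and P1-like to P3-like cells hold for 1 clustering.

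**Figure D3:**
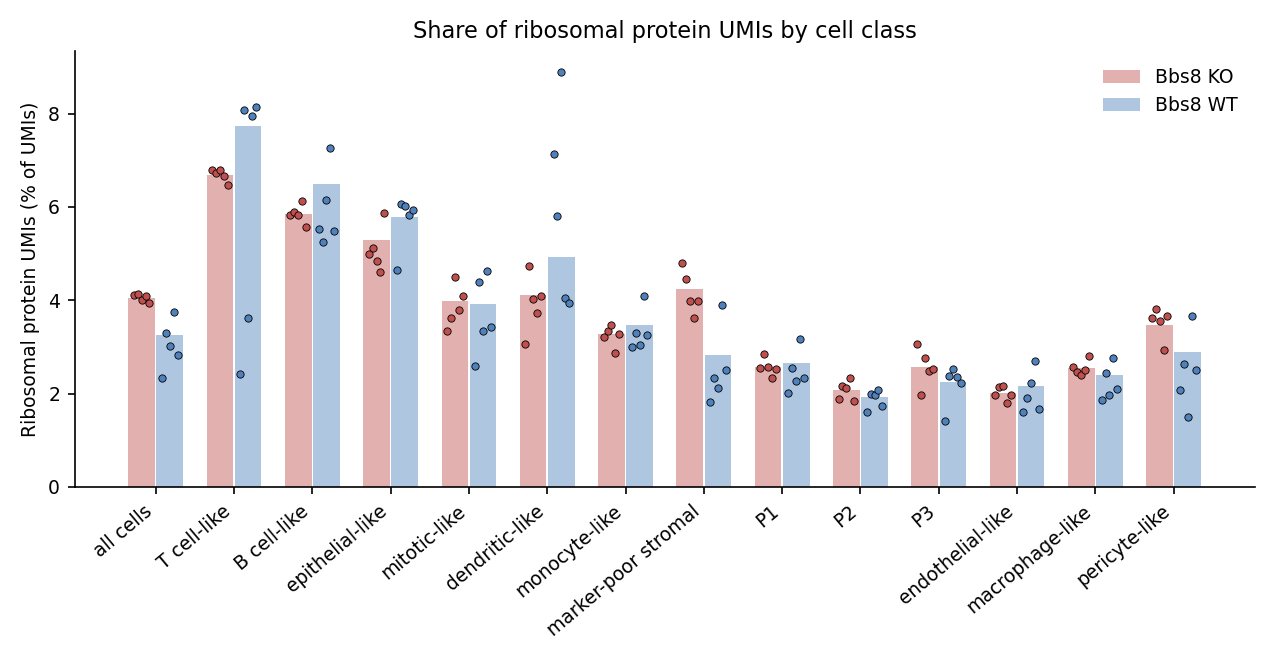
RP UMIs as a percentage of UMIs (without Gm42418 and mitochondrial genes) in all cells and in 13 classes of cells. Cells left unnamed have no bars of their own. Bars give the pooled share of each mouse and points its barcode sets. The bars of T cell-like and B cell-like cells are the highest in both mice, and the sets of B cell-like cells overlap those of epithelial-like cells in both.

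Within each mouse the share of T and B cell-like cells together exceeded that of stromal-like cells. The difference was 3.13 percentage points in Bbs8 KO (2.86 to 3.72 over sets) and 4.74 percentage points in Bbs8 WT (2.45 to 5.23 over sets), so lymphocytes were higher in all 10 sets. It was carried by nearly all members. Of 44 members with at least 200 UMIs in these cells, 44 (Bbs8 KO) and 42 (Bbs8 WT) had a higher level in lymphocytes than in stromal-like cells, against 60.5% and 59.8% of 1915 genes. The median log2 ratio of lymphocytes over stromal-like cells was 0.91 (Bbs8 KO) and 1.50 (Bbs8 WT), against 0.35 and 0.42 over all such genes.
The make-up of the RP pool differed by small amounts. Of RP UMIs, Rpl4 took a higher share in lymphocytes than in stromal-like cells, by 1.1 (Bbs8 KO) and 0.894 (Bbs8 WT) percentage points, and Rpl8 by 1.08 and 0.417. In the other direction, Rps24 differed by -0.409 percentage points in Bbs8 KO and -1.01 in Bbs8 WT, Rplp1 by -0.189 and -1.08, and Rplp0 by -0.216 and -0.438. These values describe 1 mouse each.

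The RP share also moved with the depth of a cell. In stromal-like cells of Bbs8 KO it was 4.11% (3.97% to 4.25%) in the shallowest of 5 depth bins, with 101 to 136 UMIs per cell, and 2.42% (2.38% to 2.47%) in the deepest, with at least 352 UMIs. In stromal-like cells of Bbs8 WT it was 3.57% (3.21% to 3.96%) in the shallowest and 2.25% (2.18% to 2.33%) in the deepest. In lymphocytes of Bbs8 KO the share went the other way, from 5.78% to 6.43%, whereas in Bbs8 WT it was 8.15% (7.45% to 8.9%) in the shallowest and 6.68% (6.09% to 7.3%) in the deepest, which held 13 cells. Lymphocytes exceeded stromal-like cells in all 5 bins of both mice.

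**Figure D4:**
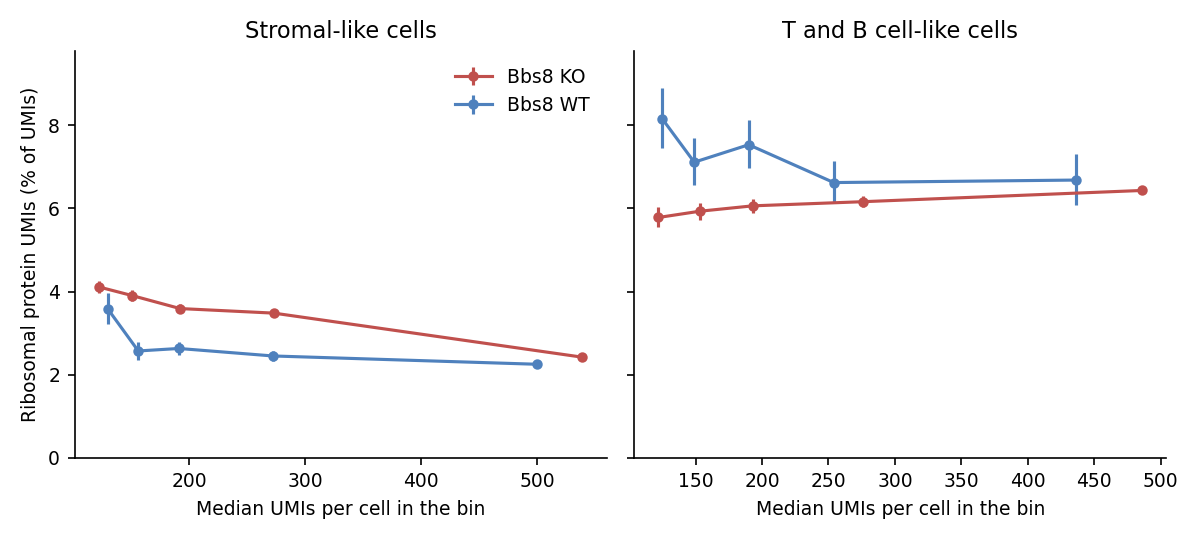
RP UMIs as a percentage of UMIs against the median UMIs per cell in 5 depth bins, for stromal-like cells (left) and T and B cell-like cells (right). Bars are exact binomial 95% intervals (counting error only). The stromal share of Bbs8 KO falls from 4.11% to 2.42% with depth, and that of Bbs8 WT from 3.57% to 2.25%.

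Between the mice, the RP share over all cells was 4.05% in Bbs8 KO (4.02% to 4.07%) and 3.25% in Bbs8 WT (3.2% to 3.29%). The sets of Bbs8 KO lay between 3.93% and 4.13% and those of Bbs8 WT at 2.34%, 2.82%, 3.02%, 3.3% and 3.75%, so the sets of the mice did not overlap. The difference was 0.802 percentage points. The set numbers split further within Bbs8 WT, with 2.9% for WT3 and 3.45% for WT4, than within Bbs8 KO, with 4.13% for KO5 and 4.01% for KO6, and each number held a single genotype.
The mice also differed in their cells. T and B cell-like cells made up 22.1% (Bbs8 KO) and 9.95% (Bbs8 WT) of cells, and stromal-like cells 34.5% and 45.7%. When the class shares of both mice were weighted by the UMIs per class of the Bbs8 WT mouse, the values were 3.53% for Bbs8 KO and 3.25% for Bbs8 WT, a difference of 0.282 percentage points. With the weights of the Bbs8 KO mouse they were 4.05% and 3.96%.

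In stromal-like cells, the RP share was 3.09% in Bbs8 KO (sets 2.65% to 3.38%) and 2.42% in Bbs8 WT (sets 1.79% to 2.84%), 0.675 percentage points higher in Bbs8 KO with overlapping sets. The difference was 0.0599 without integration of the sets, 0.305 with RP genes kept in the clustering, and 0.319 with cells called by markers. The adipocyte precursor (APC) classes within it went in both directions, each with overlapping sets. P1-like APCs, the multipotent cells marked by Dpp4 and Pi16, had 2.56% in Bbs8 KO and 2.66% in Bbs8 WT. P2-like APCs, the committed preadipocytes marked by Icam1 and Col15a1, had 2.07% and 1.93%, and P3-like cells, marked by F3 and Gdf10, had 2.56% and 2.24%.
Among the stromal classes, the largest difference lay in a cluster that passed none of the P1, P2 and P3 lists and held 1776 Bbs8 KO and 345 Bbs8 WT cells. It passed the stromal list by a mean log2 fold of 0.61 over its markers, against a minimum of 0.5. Its RP share was 4.25% in Bbs8 KO (sets 3.62% to 4.8%) and 2.83% in Bbs8 WT (sets 1.82% to 3.9%). Mitochondrial genes took 9.92% and 8.85% of its UMIs, and the median total per cell was 161 and 183 UMIs. In all stromal-like cells these values were 7.49% and 6.66%, and 191 and 234 UMIs. Their part in the difference was not tested. Without this cluster, the stromal difference was 0.0645 percentage points. The cluster also differed in its markers. The 8 stromal markers summed to 44461 CPM in its Bbs8 KO cells (41991 to 53061 over sets) and 86703 CPM in Bbs8 WT (66771 to 107194). The 11 T cell markers summed to 2681 CPM in Bbs8 KO (2198 to 2815, all 11 detected) and 616 CPM in Bbs8 WT (92.7 to 1126, 10 detected, Cd3e at 0). The 9 B cell markers summed to 2742 CPM (2339 to 2951) and 790.3 CPM (92.7 to 1452), with all 9 detected in both. In the P1-like to P3-like classes both lists were also higher in Bbs8 KO, with 552 to 1058 CPM against 158 to 286 CPM for the T cell list and 728 to 1145 CPM against 202 to 249 CPM for the B cell list. In T cell-like cells their own list reached 13228 CPM in Bbs8 KO against 9046 CPM in Bbs8 WT. Other lists went both ways. In the marker-poor cluster the 10 macrophage markers summed to 2273 CPM in Bbs8 KO (1843 to 2729) and 1085 CPM in Bbs8 WT (92.7 to 2106, Lyve1 and Fcgr1 at 0), and the 10 endothelial markers to 1251 CPM (1007 to 1467) and 522 CPM (79.5 to 1017, Kdr and Tie1 at 0). In all stromal-like cells these lists stood at 1228 and 439 CPM and at 696 and 202 CPM. The erythroid markers were lower in Bbs8 KO with overlapping sets, at 139 CPM against 281 CPM in the cluster and 87.3 CPM against 273 CPM in all stromal-like cells, and adipocyte markers had 37.6 CPM (13 UMIs) against 80.4 CPM (6 UMIs) in the cluster and 24.1 CPM against 21.2 CPM in all stromal-like cells. Skeletal muscle markers had 16 UMIs (46.3 CPM) in the Bbs8 KO cells of the cluster and 30 UMIs (34.4 CPM) in all stromal-like cells of Bbs8 KO, and 0 UMIs in Bbs8 WT in both. The part of RNA of other cell types in the RP shares was not tested.

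In the other classes the sets of the mice overlapped throughout. T cell-like cells were lower in Bbs8 KO by 1.04 percentage points, with values of 6.69% and 7.73%, but higher by 0.646 as the mean of the 5 sets, where sets with few cells weigh as much as the others. Mitochondrial genes took 8.76% of UMIs in their Bbs8 KO cells and 11% in Bbs8 WT, and the median total per cell was 221 and 170.0 UMIs. The part of these in the difference was not tested. B cell-like cells differed by -0.657 percentage points, but by 0.474 with at least 200 genes per cell and by 0.346 without WT4_p2. That set had the most cells of Bbs8 WT and 46 of the 85 B cell-like cells of this mouse. Stromal markers in B cell-like cells summed to 1831 CPM in Bbs8 KO (sets 1146 to 2518) and 4556 CPM in Bbs8 WT (sets 3245 to 8029). T cell markers went the other way, with 1672 and 1389 CPM and overlapping sets. The mitochondrial share was 9.05% and 11.6%, and the median total per cell 212 and 158 UMIs. Their part in the difference was not tested. Macrophage-like cells differed by 0.147 percentage points (0.402 without WT4_p2 and -0.152 with at least 200 genes per cell), endothelial-like cells by -0.154 (0.173 without WT4_p2, 0.339 at a clustering resolution of 1.2 and 0.532 without integration), monocyte-like cells by -0.217 and epithelial-like cells by -0.488.
A cluster of 914 cells, of which 99.1% came from the set KO6_p2, met the T cell list and was left unnamed as it came from a single set. None of the listed markers was among its 10 leading genes, which did include Cd4 and Cd27, both outside the list. The cluster took in 10.1% of the Bbs8 KO cells but 0.415% of the Bbs8 WT cells. A further 10.7% and 10.6% stayed unnamed by markers. With that cluster named T cell-like, the share of T cell-like cells differed by -1.45 percentage points between Bbs8 KO and Bbs8 WT.

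Over all cells, 50 members had at least 200 UMIs, and their median log2 ratio of Bbs8 KO over Bbs8 WT (pseudocount of 5 CPM) was 0.10, against 0.07 over 3649 genes with as many UMIs. The quartiles of the members lay at -0.23 and 0.65. The median turned to -0.02 with TMM and -0.04 with median-of-ratios scaling, which shifted the ratios of all genes by -0.12 and -0.14, and it was 0.38 without WT4_p2. Past 0.5, 19 of the 50 members were higher in Bbs8 KO, where 23.2% of all genes were, and 7 were lower, where 15.6% were. All 5 sets of Bbs8 KO stood above all 5 of Bbs8 WT for 20 members, against 13.6% of all genes, and below them for 2 members, against 9.32%.

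Higher members included proteins of both subunits. Rps2, which lies at the mRNA entry, had 379 CPM in Bbs8 KO (sets 349 to 413) and 128 CPM in Bbs8 WT (sets 42.8 to 163), a log2 ratio of 1.53 (1.22 to 1.94). Rps7 had 139.8 CPM (sets 115 to 157) and 47.5 CPM (sets 0 to 97.2), a log2 ratio of 1.46. Rpl6 had 185 CPM (sets 164 to 238) and 71.3 CPM (sets 19.4 to 112), a log2 ratio of 1.31. The sets of the mice did not overlap in any of these. Rplp0 combined a high level with a log2 ratio of 1.14 (1.03 to 1.25), with Bbs8 KO sets between 2918 and 3117 CPM and Bbs8 WT sets between 1034 and 1743 CPM. Of its stalk partners, Rplp2 had a log2 ratio of 0.61, also without overlap of the sets, and Rplp1 one of -0.22 with overlapping sets. By shared sequence, the median log2 ratio was 0.10 for 36 members with less than 50% of windows shared and 0.18 for the other 14.

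Rpl34 stood apart at the lower end, followed by Rps15a. Rpl34, a large subunit protein, had 31 UMIs in Bbs8 KO against 209 in Bbs8 WT, although Bbs8 KO had more cells. Its sets lay at 7.13, 9.23, 11.4, 14.5 and 20.2 CPM in Bbs8 KO and at 242, 270.2, 423, 451 and 506 CPM in Bbs8 WT. This is a log2 ratio of -4.45 with the pseudocount, and the interval of the plain ratio was -5.51 to -4.37. Counted from the lower end, Rpl34 was number 2 of the 3649 genes. Rps15a, a small subunit protein, had 145 CPM in Bbs8 KO (sets 133 to 151) and 517 CPM in Bbs8 WT (sets 257 to 760.3), a log2 ratio of -1.80 (-2.06 to -1.60). For both, all Bbs8 KO sets lay below all Bbs8 WT sets. Rpl35 followed with -1.38, 121 CPM in Bbs8 KO (sets 107 to 138) and 324 CPM in Bbs8 WT (sets 121 to 546), with overlapping sets.

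**Figure D5:**
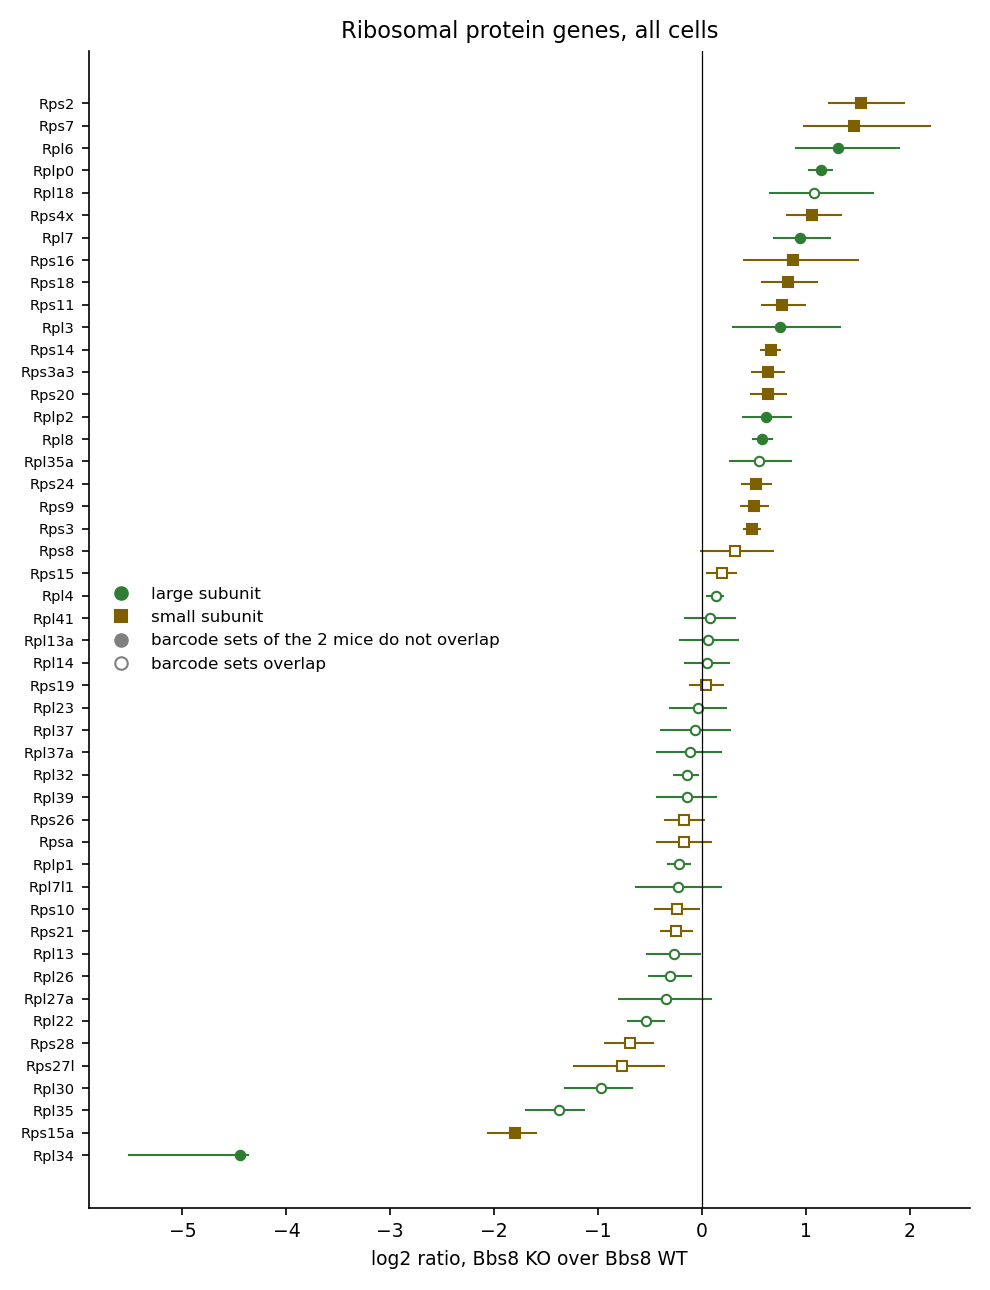
log2 ratio of Bbs8 KO over Bbs8 WT for 48 of the 50 RP genes with at least 200 UMIs over all cells. Lines are exact 95% intervals of the plain ratio (counting error only), and filled symbols mark members whose barcode sets do not overlap between the mice. Rpl34 at -4.45 lies apart from the other members.

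The -ps rows, named after RP genes, were read beside the members. Among the 3649 genes with at least 200 UMIs, the highest 3 log2 ratios belonged to Rpsa-ps10, Rps13-ps1 and Rps15a-ps8. Rpsa-ps10 (chromosome 3, 150072658 to 150073542, minus strand, mm10, a processed pseudogene) had 874 CPM in Bbs8 KO (sets 821 to 909.8) and 18.3 CPM in Bbs8 WT (sets 0 to 37.3). Its parent Rpsa, which also acts as a laminin receptor, had 249 CPM in Bbs8 KO against 282 CPM in Bbs8 WT, with overlapping sets and no shared 3′ window. Rps13-ps1 had 181 CPM in Bbs8 KO (sets 164 to 216) and 0 UMIs in Bbs8 WT. Its Bbs8 KO level was 32.9-fold an upper limit of 3 UMIs in Bbs8 WT, which leaves out the counting error in Bbs8 KO. The exact lower limit of its log2 ratio was 4.74. Rps15a-ps8 had 137 CPM (sets 100.0 to 169) and 0 UMIs, 24.9-fold on the same basis, with an exact lower limit of 4.33.
Rps15a thus moved opposite to its -ps row. Summed with its -ps rows, Rps15a had 294 CPM in Bbs8 KO against 517 CPM in Bbs8 WT, a log2 ratio of -0.81 in place of -1.80. The sum of Rpl34 and its -ps rows kept a log2 ratio of -4.21. The sum for Rpsa was 1172 CPM in Bbs8 KO (sets 1105 to 1212) and 327 CPM in Bbs8 WT (sets 143 to 453), a log2 ratio of 1.82. All 89 -ps rows together accounted for 0.222% of UMIs in Bbs8 KO (sets 0.203% to 0.248%) and 0.0887% in Bbs8 WT (sets 0.0447% to 0.128%). The source of these differences was not tested.

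Within stromal-like cells, 36 members had at least 200 UMIs, with a median log2 ratio of 0.38, against -0.04 over 979 genes. Past 0.5, 13 members were higher in Bbs8 KO (15.4% of all genes) and 2 were lower (17.3% of all genes). The Bbs8 KO sets lay above the Bbs8 WT sets for 9 members (7.97% of all genes) and below them for 0 (9.7% of all genes). Rps2 (321 CPM in Bbs8 KO against 74.4 CPM in Bbs8 WT, log2 ratio 2.04), Rplp0 (2342 and 1126 CPM, log2 ratio 1.05) and Rps4x (396 and 191 CPM, log2 ratio 1.03) were highest, all without overlap of the sets. Rps15a (log2 ratio -1.60), Rps28 (-0.55) and Rpl13 (-0.41) were lowest, with overlapping sets. The median was 0.15 without the marker-poor cluster, 0.04 without integration of the sets, and 0.65 without WT4_p2. It was 0.19 with TMM and 0.17 with median-of-ratios scaling, which shifted all genes of this class by -0.20 and -0.21.

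In T cell-like cells, 22 members were measured with a median log2 ratio of -0.04, against 0.05 over 134 genes. It was 0.43 with median-of-ratios scaling and 0.42 with TMM, which shifted all genes of this class by 0.48 and 0.47. Past 0.5, 2 members were higher in Bbs8 KO (23.1% of all genes) and 7 were lower (15.7% of all genes). Rps18 (812 CPM in Bbs8 KO against 391 CPM in Bbs8 WT, log2 ratio 1.04) and Rplp2 (0.49) were among the highest, although the Bbs8 WT value of Rps18 rests on 8 UMIs. Lowest were Rpl22 (-1.39, 652 CPM in Bbs8 KO against 1711 CPM in Bbs8 WT), Rps21 (-1.14) and Rps19 (-1.10), a gene mutated in Diamond-Blackfan anaemia. The sets of the mice overlapped for these 5 members.

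In B cell-like cells the 21 members had a median log2 ratio of -0.03, against 0.18 over 170 genes, and TMM raised it to 0.54 with a shift of 0.57. Past 0.5, 4 were higher in Bbs8 KO (31.2% of all genes) and 6 were lower (12.9% of all genes). Rps4x (1.11, with 7 UMIs in Bbs8 WT) and Rplp0 (0.95, 3967 CPM in Bbs8 KO against 2056 CPM, 37 UMIs, in Bbs8 WT) were among the highest. Rpl22 (-1.07, 633 and 1333 CPM), Rps21 (-0.93) and Rpl32 (-0.85) were lowest. For Rpl22 the sets of Bbs8 KO (441 to 873 CPM) lay below those of Bbs8 WT (1081 to 2618 CPM).

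Macrophage-like cells gave 9 members with a median log2 ratio of 0.16, against -0.17 over 119 genes. It was 0.34 with TMM and 0.33 with median-of-ratios scaling, with shifts of 0.18 and 0.17. Past 0.5, 1 was higher in Bbs8 KO (6.72% of all genes) and 0 were lower (17.6% of all genes). It was Rplp0, with 1841 CPM in Bbs8 KO (sets 1724 to 2003) and 514 CPM in Bbs8 WT (21 UMIs, sets 0 to 1073). Its log2 ratio was 1.83, followed by Rpl8 (0.48) and Rps3 (0.45). Rplp1 (-0.46) and Rpl32 (-0.39) were lowest. Endothelial-like cells gave 6 members with a median of -0.10 (0.17 with TMM, which shifted all genes by 0.26), against -0.07 over 77 genes, with 1 higher (5.19% of all genes) and 0 lower (11.7% of all genes). Rplp0 was the 1 past 0.5 there too, with a log2 ratio of 0.76 and 29 UMIs in Bbs8 WT. Its sets in Bbs8 KO lay above those in Bbs8 WT in all cells and in stromal-like, B cell-like, macrophage-like and endothelial-like cells, but not in T cell-like cells.

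The balance of the subunits differed between the mice. Large subunit members held 44384 UMIs and small subunit members 54613 UMIs in Bbs8 KO, and 8528 and 9226 in Bbs8 WT. The log2 ratio of large over small was -0.30 in Bbs8 KO (sets -0.32 to -0.28) and -0.11 in Bbs8 WT (sets -0.17 to -0.02), a difference of -0.19 without overlap of the sets. In stromal-like cells it was -0.27 in Bbs8 KO (sets -0.30 to -0.24) and -0.08 in Bbs8 WT (sets -0.14 to -0.01). In T cell-like, B cell-like, macrophage-like and endothelial-like cells the sets overlapped. Without the 5 most abundant members the difference over all cells was -0.12. As counts of tags these sums do not give the stoichiometry of the proteins.

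Other genes of translation were read beside the members. The 12 elongation factors and TOP mRNA partners summed to 8994 CPM in Bbs8 KO (sets 8710.1 to 9319) and 7683 CPM in Bbs8 WT (sets 6429.6 to 8399.8), a log2 ratio of 0.23. Of 9 with at least 200 UMIs, 3 were higher past 0.5 and 0 were lower, against 23.2% and 15.6% of all genes. Eef2, which moves the ribosome along the mRNA, had 2776 and 2459 CPM, and Eef1a1, which brings the aminoacyl-tRNA, had 2080.1 and 1816 CPM. Of 29 initiation factors, 26 had at least 200 UMIs, of which 5 were higher and 1 was lower, against the same 23.2% and 15.6%. The sum of all 29 was 7329 CPM in Bbs8 KO against 6780.0 CPM in Bbs8 WT. Eif4g2 stood at 845 and 755 CPM and Eif3a at 530.3 and 579.6 CPM.
Of 32 ribosome biogenesis genes, 17 had at least 200 UMIs, of which 4 were higher and 1 was lower (23.2% and 15.6% of all genes). Nucleolin (Ncl) had 879 CPM in Bbs8 KO against 1099 CPM in Bbs8 WT, and Ubtf, which acts in transcription of ribosomal RNA, had 359.8 and 340.1 CPM. Of 18 mitochondrial ribosomal protein genes with at least 200 UMIs, out of 77 in the table, 3 were higher and 1 was lower (23.2% and 15.6% of all genes), and the sum of all 77 had a log2 ratio of 0.10 (0.03 to 0.17). Mrps24 had 112 CPM in Bbs8 KO against 139 CPM in Bbs8 WT, and Mrpl33 had 107 and 146 CPM. Of 15 genes of mTOR and TOP control, 5 had at least 200 UMIs, of which 2 were higher and 0 were lower (23.2% and 15.6% of all genes), with Eif4ebp2 at 133 and 91.4 CPM and Akt1 at 108 and 152 CPM. Rack1, a scaffold on the small subunit that falls outside the rule, had 3006 CPM in Bbs8 KO (sets 2915 to 3086) and 2069.8 CPM in Bbs8 WT (sets 1809.9 to 2174), a log2 ratio of 0.54. Its level was also higher in lymphocytes (4799.6 CPM in Bbs8 KO against 4343 CPM in Bbs8 WT) than in stromal-like cells (2101 and 1441 CPM). Of 3 ribosome-associated genes outside the rule with at least 200 UMIs, Rack1 among them, 2 were higher and 0 were lower (23.2% and 15.6% of all genes). The nuclear RNA Malat1 had 7851 and 6897 CPM over all cells, and it was 11868 and 13264 CPM in lymphocytes against 5886 and 5014 CPM in stromal-like cells. Neat1, also nuclear, had 118 and 84.1 CPM.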

How the data were processed

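Cells of the SVF of iWAT were profiled with Seq-Well S3 in 1 Bbs8 KO and 1 Bbs8 WT mouse. The authors deposited UMI counts per gene and cell, made with bcl2fastq 2.20, dropSeqPipe and STAR (genome mm10, GENCODE annotation). Whether the counts precede the down-sampling described in the methods is not given in the sources used here.

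The table held 3144195 UMIs of Bbs8 KO and 715989 of Bbs8 WT, with 101 to 994 genes per cell, which limits single members with few UMIs. Columns carry a genotype and a set code that could not be matched to single labelled samples, so groups were the genotypes. With 1 mouse per genotype no test was run. Members and gene lists were chosen with earlier results of these data known.

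Cells were clustered in R 4.3.3 with Seurat 5.3.0 (2000 variable features, 30 dimensions, resolution 0.8, RP genes left out, barcode sets integrated, 1 thread). This gave 16 clusters, all of at least 60 cells. Clusters were named from the marker list with the highest mean log2 fold, if above 0.5 with at least 3 markers past 0.5, and those with over 90% of cells from 1 barcode set were left unnamed, a rule chosen after seeing the data. No doublet caller was run, and leaving out the 5% of cells with most UMIs was tried instead. CPM used the total without Gm42418 and mitochondrial genes. Genes with at least 200 UMIs in a class entered log2 ratios, with a pseudocount of 5 CPM and a threshold of 0.5. Where a count was 0, 3 counts served as its upper limit. Intervals came from scipy 1.17.1 (Python 3.11.15, exact Clopper-Pearson and Poisson). Those of log2 ratios are of the plain ratio, without the pseudocount. The ratio and scaling formulas were tested on simulated data and against edgeR 4.0.16 and DESeq2 1.42.0.

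Named genes were the 10 highest and 5 lowest detected members, the 3 highest and 3 lowest ratios per class, paralogs with their parents, the 3 largest shifts each way between lymphocytes and stromal cells, members without a UMI, and the 2 most abundant genes of each other list. Other members and -ps rows were named after their values were seen. Alternatives covered scaling, pseudocount, filters, thinning to 150 UMIs, clustering, naming, clustering seeds and leaving out each set. The values of 2 members are not reported here, although they enter the sums and counts.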

Additional observations from a re-analysis of the deposited data

Results flagged for a closer look

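Outside the members, 3 -ps rows stood far above the level in Bbs8 WT. Rpsa-ps10 had 874 CPM in Bbs8 KO against 18.3 CPM in Bbs8 WT, Rps13-ps1 had 181 CPM against 0 UMIs, and Rps15a-ps8 had 137 CPM against 0 UMIs.

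Some barcode sets lay far from the other 4 of their mouse in RP share. In Bbs8 WT, WT3_p1 was low with 1.42% in P3-like cells and 4.64% in epithelial-like cells, and WT4_p2 was high with 4.08% in monocyte-like cells. In Bbs8 KO, KO6_p2 was low with 2.93% in pericyte-like cells. In all, 4 sets stood out in 38 groups of sets, where chance at 1 in 20 groups gives 1.9.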

How the results depend on the processing

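Of 357 values under alternatives for 15 results, 322 moved by less than 1 SD over barcode sets, 33 moved by more, and 2 turned the sign of a difference larger than that SD. For T cell-like cells that SD was 1.97 percentage points and 2.48 on the log2 scale, with Bbs8 WT sets of 1 and 5 cells in it, so values within it there say nothing about stability. In all, 35 values had the other sign than the value reported: 5 of the endothelial-like share difference and 7 of its median, 1 of the T cell-like share difference (0.646 as the mean of the sets) and 7 of its median, 2 and 10 in B cell-like cells, 1 of the macrophage-like share difference and 2 of the median over all cells. No paired analysis was possible because the results come from no test and set codes could not be matched to labelled samples. The B cell-like share difference turned to 0.474 with at least 200 genes per cell, which leaves out 7052 cells, and to 0.346 without WT4_p2. At 200 genes the B cell-like median log2 ratio was 0.29, the macrophage-like share difference -0.152, and lymphocytes minus stromal-like cells in Bbs8 KO 3.64. Weighting classes as in the Bbs8 WT mouse gave 0.282 over all cells. Thinning to 150 UMIs, which left out 2720 Bbs8 KO and 438 Bbs8 WT cells, gave a median of 0.34 over all cells and a subunit difference of -0.23, which was -0.12 without the 5 most abundant members. No filter on UMIs gave medians of 0.41 over all cells and 0.17 in B cell-like cells. With RP genes kept in the clustering, the stromal-like share difference was 0.305, the B cell-like median 0.13, the endothelial-like median -0.48, and lymphocytes minus stromal-like cells in Bbs8 KO 3.55. Without integration, the stromal-like difference was 0.0599 and its median 0.04, the endothelial-like difference 0.532 and its median 0.28, and lymphocytes minus stromal-like cells in Bbs8 KO 3.9. At resolution 1.2 the endothelial-like difference was 0.339 and its median 0.23. Cells called by markers gave a stromal-like difference of 0.319. Without the marker-poor cluster the stromal-like difference was 0.0645, its median 0.15, and lymphocytes minus stromal-like cells in Bbs8 KO 3.89. The B cell-like median was 0.54 with TMM and 0.49 with DESeq2 size factors. Without the 5% of cells with most UMIs, the macrophage-like median was 0.50 and lymphocytes minus stromal-like cells in Bbs8 KO 2.76. With Gm42418 and mitochondrial genes in the total, the latter was 2.31 (3.25 in Bbs8 WT). The cause was not tested.

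Leaving out each set in turn, the share difference ranged from 0.668 to 1.17 over all cells, 0.585 to 0.982 in stromal-like, -1.29 to -0.764 in T cell-like, -0.828 to 0.346 in B cell-like, 0.0608 to 0.402 in macrophage-like and -0.263 to 0.173 in endothelial-like cells. The median log2 ratio ranged from 0.04 to 0.38, 0.34 to 0.65, -0.17 to 0.05, -0.17 to 0.17, 0.03 to 0.38 and -0.22 to 0.07 in the same order. The subunit difference ranged from -0.21 to -0.17, and lymphocytes minus stromal-like cells from 3.03 to 3.21 in Bbs8 KO and from 4.43 to 4.85 in Bbs8 WT. Across clustering seeds the endothelial-like difference changed sign, from -0.154 to 0.15 with seed 3. With that seed, 461 of the 462 endothelial-like cells and 112 of the 601 pericyte-like cells kept their class. Such counts show cells that left a class, not cells that joined it. With 1 mouse per genotype, differences between genotypes and between mice cannot be told apart.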
